A study of Fragaria vesca with 18 samples.

Results

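Among the annotated genes of woodland strawberry fruit, 25 were measured at a steady, moderate to high level in RNA depleted of ribosomal RNA at all 3 stages and lost most of that level when polyadenylated RNA was removed. They were chosen by measured values, from 28588 annotated genes and 61763 rows in all. The level of a gene is its share of the counts of a library, scaled to a total of 1000000 (CPM), summarised per group as the median of 3 libraries. Each of the 25 had a median of at least 50 CPM in rRNA-depleted libraries at every stage, at most a 2-fold difference between these 3 medians, and a poly(A)-depleted median of at most 1/4 of the rRNA-depleted median in green and in yellow fruit. The level and steadiness criteria alone were met by 1441 genes, so 1416 other steady genes serve below as the set most like the 25.

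The fruit came from the Hawaii4 line of Fragaria vesca, and each biological replicate combined tissue of at least 5 plants. Stages are named by the colour of the achenes, the seed-like true fruits that dot the berry: green for immature fruit, then yellow and brown for mature fruit. From total RNA, libraries were made after removal of ribosomal RNA (rRNA-depleted) and after removal of polyadenylated RNA (poly(A)-depleted), with 3 libraries for each kind and stage, 18 in all. Fruit is a mixture of cell types, so fewer cells of a type and less RNA per cell cannot be told apart in any level given here. The labelled tissue could not be checked against marker genes, because no ID in the count table is paired with a gene name.

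Most messenger RNAs of the nucleus end in a poly(A) tail, which protects them in the cytoplasm and is shortened before many of them are degraded. Depletion of polyadenylated RNA removes molecules by this tail, so what stays behind includes RNAs made without a tail, RNAs whose tail is missing or short, and fragments cut off from it. Removal of ribosomal RNA leaves messenger RNAs with and without a tail in the sample. The level of a gene in poly(A)-depleted libraries as a percentage of its level in rRNA-depleted libraries, called here the percentage kept, is therefore low for a gene whose RNA was mostly carried off with the tail. It is a ratio of shares of 2 libraries and not a ratio of molecules, since each library is scaled to its own total.

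No name or function is given for any member: 0 of the 28588 gene IDs matched the 24946 rows of the RefSeq gene table (assembly FraVesHawaii_1.0), and for that reason no promoter or protein sequence is shown. Members are given by ID, and roles and pathways could not be assigned. CPM is not corrected for length, as the files hold no length for these genes, so levels are compared between libraries for the same gene and not between genes, except as medians over sets within a library.

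Library totals ran from 9.49 to 20.4 M counts in poly(A)-depleted and from 47.2 to 76.9 M in rRNA-depleted libraries. The members were nevertheless well counted, with 66 to 1645 counts per gene and library after poly(A) depletion and 645 to 72221 in rRNA-depleted libraries. Libraries of the same group differed in makeup. Rows of intergenic lncRNAs made up 5.44, 11.0 and 16.8% of brown poly(A)-depleted libraries 1, 2 and 3, and genes whose IDs begin with FvH4_c1g (contig 1 by that name) made up 4.93, 8.62 and 13.7%. In brown rRNA-depleted libraries 1, 2 and 3 the intergenic rows took 2.09, 2.40 and 5.02% and the contig 1 genes 1.69, 1.87 and 3.41%. Brown library 3 thus had the highest such shares in both kinds.

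The criteria fixed a low percentage kept in green and yellow fruit, so those values describe the choice and are given with no test. In green fruit the members kept 10.8 to 24.9% of their rRNA-depleted level, with a median of 19.7%. In yellow fruit they kept 4.04 to 22.6%, with a median of 11.2%. The other steady genes kept a median of 90.0% in green and 44.4% in yellow fruit. The member closest to the threshold from inside was FvH4_3g35380, with 24.9% in green and 13.4% in yellow fruit, followed by FvH4_3g35650 with 24.4 and 11.4%. Just outside lay FvH4_6g19760, with 17.98% in green but 25.5% in yellow fruit, and FvH4_5g24090, with 25.7 and 11.4%. These 4 genes are spread over little more than 1 percentage point in the value that decided their place, so the edge of the list is not a gap in the data. The lowest values on the same criterion belonged to FvH4_1g05480, at 10.8 and 7.14%, and FvH4_7g05820, at 11.3 and 4.69%.

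The brown poly(A)-depleted libraries were not used in the choice, and they show whether the same genes were low there as well. The members kept 4.53 to 25.5% in brown fruit, with a median of 14.7%, and 24 of the 25 lay at or under 25%. The exception was FvH4_6g31370, at 25.5%. Of the 1416 other steady genes, 64 lay at or under 25%, which is 4.52%, and their median was 66.7%. The brown rRNA-depleted libraries had entered the choice through level and steadiness, which all 1441 genes share. By rank among these 1441 genes, counted from the lowest percentage kept, the members had a median rank of 25 in brown fruit and the highest rank of any was 94. Of the 25 steady genes with the lowest percentage kept in brown fruit 13 were members, which is 52% of each list.

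**Figure D1:**
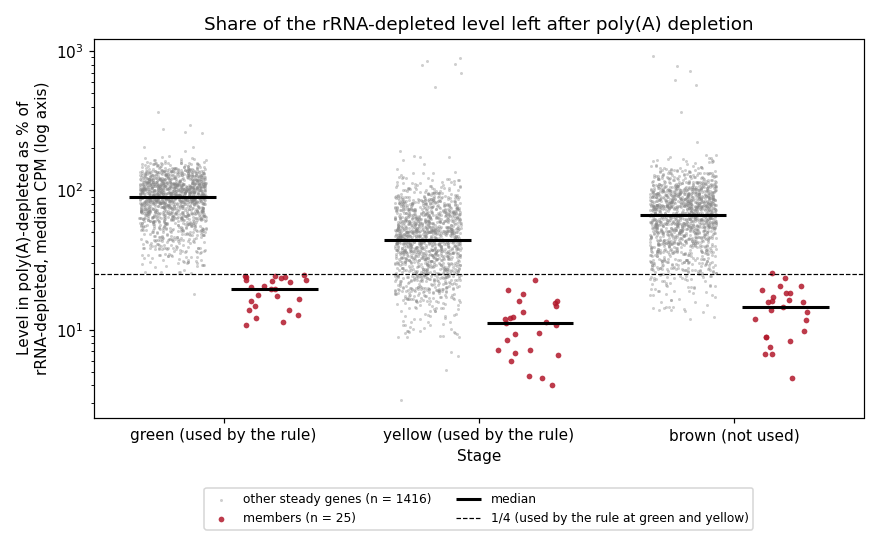
The percentage kept (poly(A)-depleted median CPM over rRNA-depleted median CPM, log axis) is plotted for each member (red, 25) and each other steady gene (grey, 1416) at each stage, with black lines at the medians. Green and yellow values chose the members. In brown fruit the choice used the rRNA-depleted libraries, for level and steadiness, and not the poly(A)-depleted ones. There 24 of 25 members lie at or under 25%, and the medians are 14.7% for members and 66.7% for other steady genes.

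In single brown libraries the 2 kinds did not overlap for any member: the highest of the 3 poly(A)-depleted values was below the lowest of the 3 rRNA-depleted values for 25 of 25. The same held for 7.96% of the 26494 annotated genes tested and for 38.7% of the other steady genes. FvH4_6g16770 measured 60.0, 35.9 and 26.7 CPM in brown poly(A)-depleted libraries 1, 2 and 3 and 793, 1116 and 659 CPM in brown rRNA-depleted libraries. This gene had the most negative log2 fold change of the 25 at the brown stage with TMM scaling (given below) and kept the least of its level, 4.53%. FvH4_1g05480, second by that fold change, measured 43.1, 26.3 and 20.7 CPM against 391, 595 and 253 CPM. It kept 6.73%, beside 6.71% for FvH4_3g32230, so these 2 are not ordered by the percentage kept. In FvH4_6g16770 and FvH4_1g05480 poly(A)-depleted library 1 was the highest of its group and rRNA-depleted library 2 the highest of its own.

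The 2 members with the smallest drop by the same TMM log2 fold change were FvH4_6g31370 and FvH4_6g32810, which kept 25.5 and 19.4% of their level. FvH4_6g31370 measured 80.5, 79.3 and 21.8 CPM in brown poly(A)-depleted libraries 1, 2 and 3 and 311, 352 and 149 CPM in rRNA-depleted libraries. Library 3 was the lowest of both kinds. FvH4_6g32810 measured 57.0, 105.5 and 38.2 CPM against 293, 386 and 124 CPM, with library 3 again lowest in both. The gap between the kinds was narrow for this gene, 105.5 CPM in the highest poly(A)-depleted library and 124 CPM in the lowest rRNA-depleted one.

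**Figure D2:**
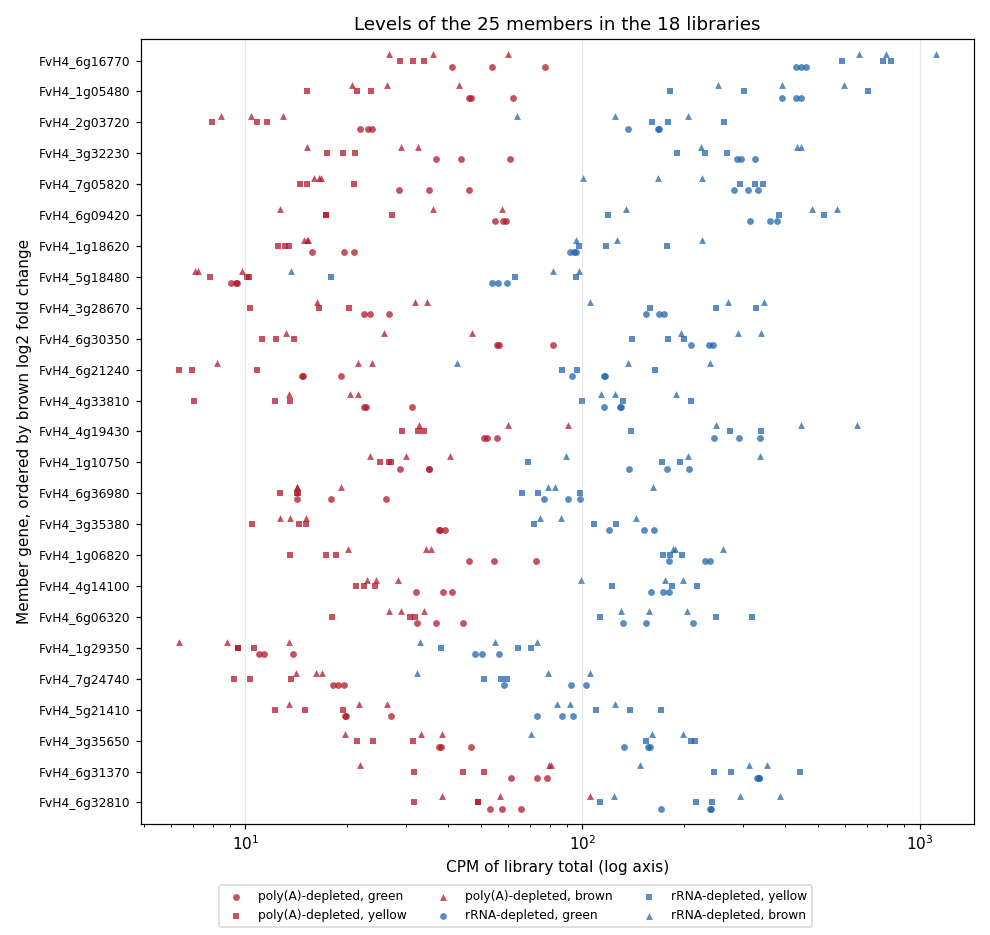
Each row is a member, ordered by its brown log2 fold change, and each point is its CPM (log axis) in a single library: red for poly(A)-depleted, blue for rRNA-depleted, with circles for green, squares for yellow and triangles for brown. Green and yellow points chose the members, and the blue brown triangles entered the choice through level and steadiness. The red brown triangles, which the choice did not use, lie to the left of the blue ones for 25 of 25 members. The same held for 7.96% of annotated genes tested and 38.7% of other steady genes.

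All 25 members were lower in brown poly(A)-depleted than in brown rRNA-depleted libraries at an adjusted p under 0.05 (edgeR quasi-likelihood test in a fit to all 18 libraries with TMM scaling, adjusted by Benjamini-Hochberg over 52101 rows). The background rate was 25.0% of annotated genes called lower in the same comparison, and 65.7% of the other steady genes. The share of other steady genes called depended on the libraries in the fit: it was 28.7 to 97.7% when single brown libraries were left out, each with 25 of 25 members lower, and 5.79% with 22 of 25 members in a fit of the 6 brown libraries alone. The log2 fold changes of members ran from -5.70 to -3.51, with standard errors of 0.45 to 0.96 and adjusted p-values of 0.000287 to 0.00413. Their median was -4.32, which is a level 20.0-fold lower, against medians of -1.84 for the other steady genes and -0.05 for all annotated genes tested. FvH4_6g16770 stood at -5.70 ± 0.85 (SE, n = 3 libraries per group, edgeR adjusted p = 0.000461) and FvH4_1g05480 at -5.15 ± 0.88 (edgeR adjusted p = 0.000835). FvH4_6g31370 stood at -3.51 ± 0.79 (edgeR adjusted p = 0.00413) and FvH4_6g32810 at -3.51 ± 0.73 (edgeR adjusted p = 0.00267). The standard errors of the last 2 overlap each other and those of many members between, so the order among the 25 is loose.

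The size of these drops depended on scaling and on single libraries. With library totals only, the median of the members was -2.88, a 7.38-fold lower level, and that of the other steady genes -0.58. The difference between both medians was -2.30, against -2.48 with TMM. On library totals the median of all annotated genes tested was 1.41, and 7.07% of them and 37.5% of the other steady genes were called lower. With TMM factors from annotated genes only that median was 0.41, with 15.5 and 48.9% called lower. The -0.05 and 25.0% given above are those of TMM over all rows. Without brown poly(A)-depleted library 3 the members' median was -3.68, a 12.9-fold lower level, and the share of annotated genes called lower was 10.4%. Without brown poly(A)-depleted library 1 and without library 3, the values were -6.58 and -5.05 for FvH4_6g16770, -5.99 and -4.49 for FvH4_1g05480 and -4.14 and -2.76 for FvH4_6g31370, and FvH4_6g32810 was at -2.82 without library 3. In a fit of the 6 brown libraries alone FvH4_6g31370 and FvH4_6g32810 missed the threshold (edgeR adjusted p = 0.0751 and 0.0704).

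**Figure D3:**
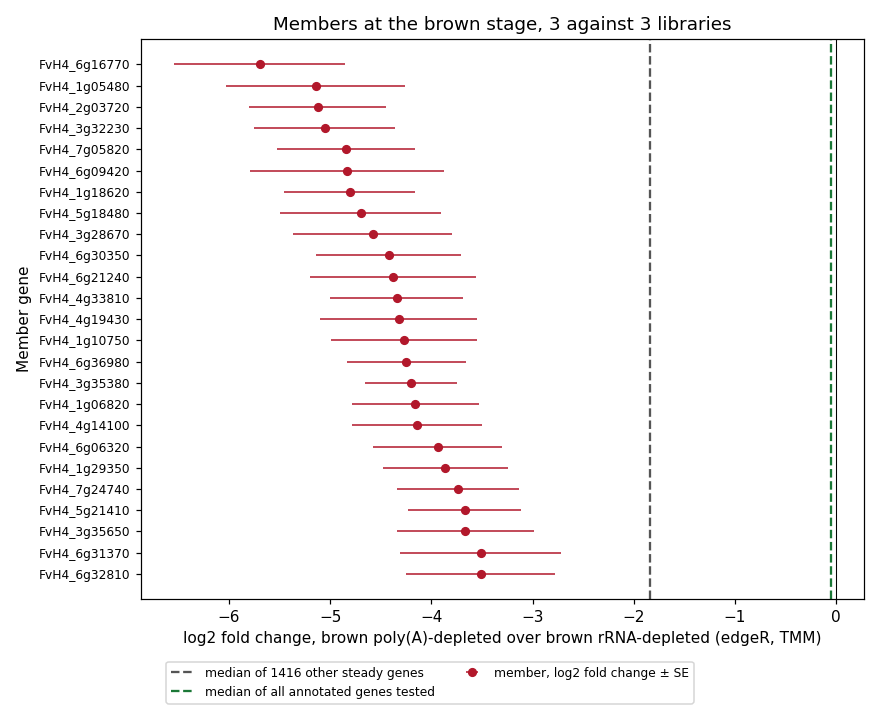
Log2 fold change of each member between brown poly(A)-depleted and brown rRNA-depleted libraries (points, with bars of 1 standard error; 3 against 3 libraries, TMM scaling). All 25 points lie left of the dashed medians of the other steady genes (-1.84) and of all annotated genes tested (-0.05).

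In green and yellow fruit the same test called 25 of 25 members lower, beside 11.0 and 42.2% of annotated genes and 19.2 and 99.2% of the other steady genes. The members were chosen on these contrasts, so nothing is read from their counts there.

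Set against the other steady genes, the members' median percentage kept was 22.0% of theirs in brown fruit. In green and yellow fruit, where the choice bounded the members' values, it was 21.9 and 25.1%, given as a description. Among the members, 19 kept least in yellow and 6 in brown fruit, and 21 kept most in green fruit. Of the other steady genes, 92.3% kept least in yellow fruit, so the low yellow values are not particular to the members. With TMM scaling the members' median percentages kept were 10.2, 2.61 and 4.59% in green, yellow and brown fruit, and the other steady genes' 48.2, 10.8 and 22.5%. Across the 25 members the brown percentage kept went with the green (Spearman rho = 0.66) and with the yellow (rho = 0.65) percentage, as a description over genes that share all their libraries. Over the 1441 steady genes the values were 0.88 and 0.87. The members span only the low end of the green and yellow range, which the choice cut.

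A ratio taken inside each library needs no scaling between libraries. The median CPM of the members was 0.297 to 0.443 times that of the other steady genes in the 9 poly(A)-depleted libraries and 1.14 to 2.27 times in the 9 rRNA-depleted libraries. For the brown poly(A)-depleted libraries, which the choice did not use, the ratio was 0.297, 0.382 and 0.443 in libraries 1, 2 and 3. In brown rRNA-depleted libraries it was 1.70, 2.18 and 1.14. In brown fruit the members' median was thus above that of the other steady genes in each rRNA-depleted library and below it in each poly(A)-depleted library, and only the brown poly(A)-depleted values lie outside the choice. In rRNA-depleted libraries the lowest ratios were those of yellow library 1 (1.15) and brown library 3 (1.14).

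**Figure D4:**
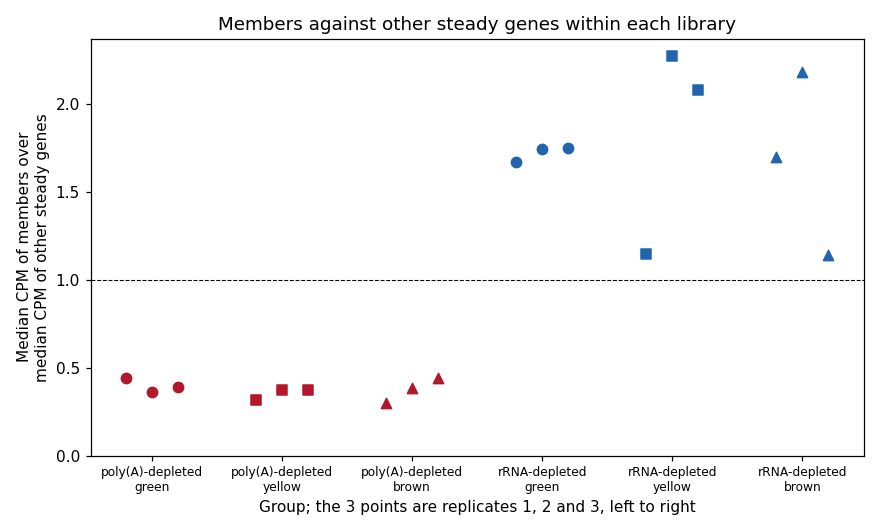
Median CPM of the 25 members divided by the median CPM of the 1416 other steady genes in the same library, for the 18 libraries by group (3 points each, replicates 1, 2 and 3). Green and yellow libraries were used in the choice, and the brown rRNA-depleted ones for level and steadiness. The brown poly(A)-depleted points, which the choice did not use, lie between 0.297 and 0.443, below the dashed line at equal levels.

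All members together took 0.0932 ± 0.0109, 0.0487 ± 0.00276 and 0.0686 ± 0.0207% of the counts in green, yellow and brown poly(A)-depleted libraries (mean ± SD, n = 3). In rRNA-depleted libraries they took 0.494 ± 0.0267, 0.521 ± 0.132 and 0.565 ± 0.190%. The rRNA-depleted share was tight in green fruit and spread in yellow and brown fruit. Yellow libraries 1, 2 and 3 gave 0.384, 0.646 and 0.533%. For the brown stage, the same libraries gave 0.557, 0.758 and 0.379%.

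This spread bears on the word steady. The choice bounded the stage medians, whose highest over lowest value was 1.06 to 1.94 among members, with a median of 1.43, beside 1.40 for the other steady genes. FvH4_4g33810 and FvH4_4g14100 had the closest stage medians, both with a ratio of 1.06, and FvH4_7g05820 and FvH4_3g32230 the farthest, with 1.94 and 1.86. Single libraries differed by more. The highest over the lowest of the 9 rRNA-depleted values exceeded 2-fold for 24 of the 25 members, which is 96%, and for 45.8% of the other steady genes. The median of this ratio was 2.97 for the members and 1.95 for the other steady genes. With TMM scaling both medians were larger, 5.73 and 3.27, and the share over 2-fold no longer differed much, 24 of 25 members beside 96.6% of the other steady genes. The members were thus steady by their stage medians in CPM of library totals and not from library to library. With TMM scaling some members exceeded 2-fold between stage medians, and 17 of the 25 still met all criteria. FvH4_6g16770, for example, then had stage medians of 605, 1264 and 1799 CPM in green, yellow and brown rRNA-depleted libraries.

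The members with the closest medians show the same spread. FvH4_4g33810 measured 116, 130 and 130 CPM in green, 99.9, 210 and 132 CPM in yellow and 125, 190 and 114 CPM in brown rRNA-depleted libraries 1, 2 and 3. Green libraries lay close together, and yellow library 2 and brown library 2 were high. FvH4_4g14100 measured 160, 180 and 174 CPM in green, 122, 219 and 185 CPM in yellow and 176, 199 and 99.3 CPM in brown libraries, with yellow library 1 and brown library 3 low. The widest ratio of single libraries, 7.17, was that of FvH4_5g18480, named after its values were seen. It measured 53.8, 59.7 and 56.0 CPM in green, 17.995, 95.7 and 63.2 CPM in yellow and 81.6, 98.0 and 13.7 CPM in brown rRNA-depleted libraries.

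The low and high values of members fell in few libraries. Of the 25 members, 10 had their lowest rRNA-depleted value in brown library 3 and 8 in yellow library 1, while 13 had their highest in brown library 2 and 5 in yellow library 2. Such counts were not made for the other steady genes, so they are not shown to be particular to the members. The other steady genes' median was 92.3 CPM in brown library 3 and 106 CPM in yellow library 1, within 92.0 to 106 CPM over the rRNA-depleted libraries. Without brown rRNA-depleted library 3, 20 members exceeded 2-fold and the median ratio was 2.33, beside 1.81 for the other steady genes. Without yellow library 1 it was 2.65, beside 1.86. That brown library 3 held the highest intergenic and contig 1 shares of its group is given above, and its part in this spread was not tested. Not all members followed it. FvH4_3g35380 measured 74.7, 86.4 and 144 CPM and FvH4_3g32230 measured 225, 431 and 446 CPM in brown rRNA-depleted libraries 1, 2 and 3, so library 3 was the highest for both.

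**Figure D5:**
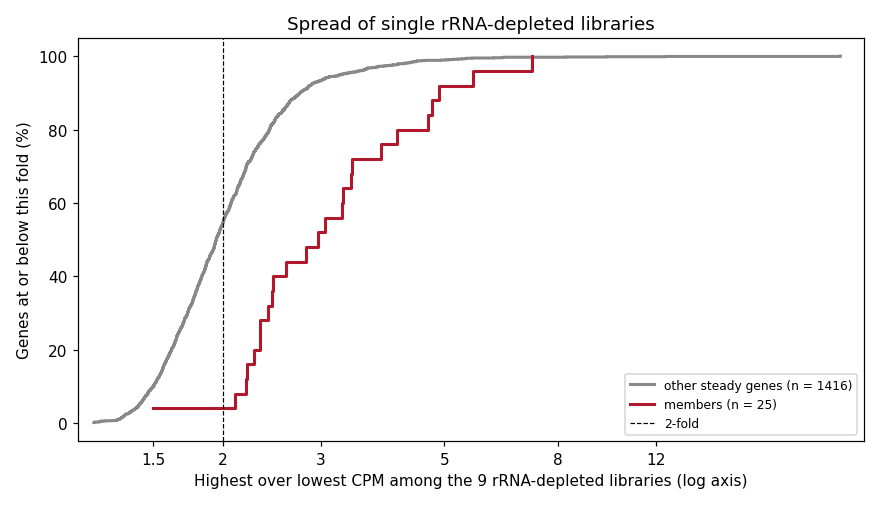
Share of genes (vertical axis, %) whose highest over lowest CPM among the 9 rRNA-depleted libraries is at or below the value on the horizontal axis (log), for the 25 members (red) and the 1416 other steady genes (grey). The median is 2.97 for members and 1.95 for other steady genes, and 24 of 25 members lie to the right of the dashed 2-fold line.

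After poly(A) depletion the members' remaining level was highest in green fruit for 19 of 25 and lowest in yellow fruit for 20 of 25. Of the other steady genes, 77.9% were highest in green and 94.0% lowest in yellow fruit. The highest over the lowest stage median in poly(A)-depleted libraries was 1.18 to 4.59 among members, with a median of 1.83, and the other steady genes had a median of 2.11. Since green and yellow values were chosen to be low, no test is given. FvH4_7g05820 measured 46.0, 28.6 and 35.0 CPM in green, 21.1, 15.3 and 14.5 CPM in yellow and 16.5, 16.8 and 16.0 CPM in brown poly(A)-depleted libraries 1, 2 and 3. Its green values lay above all others and the brown replicates were close together.

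Replicates of the brown poly(A)-depleted group differed from gene to gene. FvH4_1g18620 measured 15.0, 15.3 and 15.2 CPM there, a range of 1.02-fold, and FvH4_7g05820 ranged 1.05-fold. FvH4_6g09420 measured 57.7, 35.9 and 12.7 CPM, a range of 4.55-fold, and FvH4_6g31370 ranged 3.69-fold. Library 3 was the lowest of the 3 for 19 of the 25 members. The median SD of log2 CPM (0.5 added) over these libraries was 0.48 for members and 0.80 for the other steady genes. The other steady genes' median level fell across these libraries as well, with 97.6, 68.8 and 34.4 CPM in libraries 1, 2 and 3, beside 29.0, 26.3 and 15.2 CPM for the members. In brown rRNA-depleted libraries the order was the opposite, with a median SD of 0.62 for members and 0.27 for other steady genes. Between libraries 1 and 2 alone the order was the same: the median absolute log2 difference was 0.25 for members and 0.50 for other steady genes in brown poly(A)-depleted libraries, and 0.44 and 0.26 in rRNA-depleted ones. Yellow libraries went the same way. After poly(A) depletion their median SD was 0.28 for members and 0.31 for other steady genes, and after rRNA depletion it was 0.44 for members and 0.26 for other steady genes. In green fruit members had the larger median SD in both kinds, 0.18 beside 0.11 and 0.14 beside 0.10. Without brown poly(A)-depleted library 3 the median percentage kept in brown fruit was 16.6% for members and 83.7% for the other steady genes.

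The place of the members can be read only from their IDs, whose digit before the letter g is taken here as the chromosome. By this reading 8 members were on chromosome 6, 5 on chromosome 1, 4 on chromosome 3, 3 on chromosome 4, 2 each on chromosomes 5 and 7, and 1 on chromosome 2. Chromosome 6 held 32% of the members beside 19.6% of the other steady genes, a count of 8 genes given with no test. No member stood next to another: the closest pair was 27 gene IDs apart. Of the genes with an adjoining ID, 13 reached 10 CPM in brown rRNA-depleted libraries, and they kept 50.8 to 184% of their level in brown fruit, with a median of 85.7%. All 7998 genes with at least 10 CPM had a median of 86.8%, so the adjoining genes were not low with the members.

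Reads of a gene can also be counted for an lncRNA row that lies antisense to its exons, as no source used here states the strand setting of the authors' counting. An exonic antisense row was taken to follow a gene where the log2 ratio of their counts stayed within 0.5 of its own median in all 18 libraries. Such a row was found for 6 of the 25 members, and on the chromosome that the ID gives for 5, which is 20%. The members also spread more between single rRNA-depleted libraries, with a median of 2.97-fold beside 1.95-fold for the other steady genes. What part this had in the shares with a following row was not tested. Among the other steady genes 83.4% had such a row anywhere and 60.4% on their own chromosome. The difference between the last 2 shares shows that unrelated rows also met this criterion, so a following row need not overlap its gene.

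Positions of these rows are those of the authors' assembled transcripts, counted from 1, on a genome build that no source used here names. The row exonAS.XLOC_023598 (chromosome 6, 5603622 to 5605298, plus strand) held 0.990 to 1.03 times the counts of FvH4_6g09420. exonAS.XLOC_009367 (chromosome 3, 21639093 to 21640274, plus strand) held 0.848 to 1.01 times those of FvH4_3g28670. exonAS.XLOC_019429 (chromosome 5, 10646268 to 10647372, plus strand) held 0.901 to 1.04 times those of FvH4_5g18480. For these pairs the gene row and the antisense row held nearly equal counts, and whether they overlap in the genome was not tested. exonAS.XLOC_031552 (chromosome 7, 6053631 to 6055205, minus strand) held 0.907 to 1.03 times the counts of FvH4_7g05820. exonAS.XLOC_000227 (chromosome 1, 3604530 to 3605782, plus strand) held 0.679 to 0.956 times those of FvH4_1g06820. These rows were low after poly(A) depletion like the genes they follow, which the bounded ratios of their counts imply. In brown fruit they kept 7.55, 11.7, 8.76, 9.67 and 13.7% in the order given. FvH4_1g06820, the gene that the last row follows, kept 18.3%.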

How the data were processed

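The authors deposited raw counts, whole numbers per gene or lncRNA row and library, with no normalization per the file headers, and exon start and end positions of assembled transcripts (another kind of value, per the file headers from Cufflinks). Tools listed without a role, per the submitters' processing notes, are TopHat2 2.1.2, STAR 2.5.4b and Trim Galore 0.4.2; no source used here names the counting program. Library totals were 9.49 to 76.9 M.

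CPM was the count over the library total. Counts were compared with edgeR 4.0.16 (R 4.3.3, limma 3.58.1): TMM scaling, filterByExpr by group, a quasi-likelihood fit to 18 libraries in 6 groups without a replicate block, and Benjamini-Hochberg adjustment over all rows tested. Standard errors come from the F statistic. The procedure was tested on simulated counts for the brown comparison. It recovered 52.5% of 200 rows simulated as changed, and 3.67% of its calls were false. Equal numbers of these rows were raised and lowered, and all other rows were simulated without change between the kinds at brown. In the real brown comparison 10036 rows were called lower and 5910 higher, so the simulated rates need not hold there. DESeq2 1.42.0, other scalings, filters, thresholds and library subsets were alternatives.

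The members, sets and tests were chosen with earlier results of these data known. Named genes are the extremes of brown log2 fold change, of the choice criteria and of the spread in brown poly(A)-depleted libraries; others named were chosen after their values were seen. Another 8 gene IDs that the choice leaves out are not analysed here. Planned gene lists could not be used because no ID has a name.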

Additional observations from a re-analysis of the deposited data

How the results depend on the processing

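The count of 25 members lower in brown poly(A)-depleted libraries was 25 under 17 of 18 alternatives and 22 in a fit of the 6 brown libraries alone. There FvH4_4g19430 (edgeR adjusted p = 0.0554) missed the threshold besides the 2 members named above, and 4.94% of annotated genes and 5.79% of other steady genes were lower. Their median log2 fold change kept its sign under every alternative run; it was -3.75 with TMM factors from annotated genes only, and leaving out single brown libraries gave -4.69 to -3.68. The share of annotated genes called lower then ran from 10.4 to 33.1%, and that of the other steady genes from 28.7 to 97.7%. Leaving out brown poly(A)-depleted library 1 or 3 moved 10 and 17 members by over 1.5-fold and leaving out rRNA-depleted library 2 moved FvH4_6g21240 from -4.38 to -3.74. With both brown libraries numbered 3 left out, a choice made after seeing the data, 25 members were lower and the median was -4.00. The choice of members itself depended on scaling. The same criteria found 160 genes with TMM CPM over all rows (17 of the 25 among them, 68% of the members and 10.6% of those found). They found 132 with TMM factors from annotated genes only (20 shared). In both, the larger scaling factors of poly(A)-depleted libraries lower every ratio, which can add genes but can remove no member. The level and 2-fold criteria were applied to the same rescaled CPM, so the added genes cannot be put down to the ratios alone. Which criterion the missing members failed with factors from annotated genes only was not examined. With TMM CPM over all rows, the members not found failed the 2-fold bound between rRNA-depleted stage medians. FvH4_6g16770 was among them, with stage medians of 605, 1264 and 1799 CPM in green, yellow and brown fruit. Means in place of medians found 20 genes, 19 of them members, and leaving out single libraries found 19 to 27. At brown, 24 members were at or under 1/4 of the rRNA-depleted level. The count was 25 with TMM CPM over all rows and 22 without brown poly(A)-depleted library 3. Whether a replicate number marks the same fruit in both kinds of library is not stated in the labels. Deviations of same-numbered libraries of the 2 kinds correlated at -0.07 to 0.46, over 0.1 in 8 of 9 pairs, and 8 of 9 poly(A)-depleted libraries correlated best with their own number, a hint of pairing from the data that brown libraries 2 did not share. With a replicate block within stage 25 members were lower, with a median of -4.29; 33.8% of annotated genes and 97.9% of the other steady genes were lower, and the median of the latter was -2.20.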
